A study of Mus musculus with 2 samples.

Results

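Levels of 8 cadherin genes, Cdh1, Cdh2, Cdh4, Cdh6, Cdh8, Cdh11, Cdh12 and Cdh13, were compared across apical progenitors (APs), basal progenitors (BPs), neurons and non-neural cells of the mouse telencephalon. The genes were chosen by symbol, as 8 of 28001 features in the count matrix of septal explants and 8 of 32286 features in that of the telencephalic vesicle. Both matrices held all 8. Each matrix is 1 droplet scRNAseq library, in which every captured transcript carries a unique molecular identifier (UMI). The septal library pooled explants of 8 PGKCre;Rosa26YFP embryos at E11.5 and 4 Dbx1Cre;Rosa26tdTomato embryos at E12.5, each set from 2 litters, and the labels give the animals as wild-type C57BL/6J. PGKCre is driven by a ubiquitous promoter, so YFP is not restricted to a lineage, whereas Dbx1Cre acts where Dbx1 was expressed and marks that lineage with tdTomato. The telencephalic library pooled 3 wild-type C57BL/6J embryos from 2 litters, with no reporter allele. The labels give their age as E12, and the paper gives it as E11.5-E12. The embryos of a pool cannot be told apart, so each condition is 1 sample without replicates, and no test between cells was made.

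Cadherins are calcium-dependent adhesion molecules of the plasma membrane. In classical cadherins the extracellular domains bind cadherins on the neighbouring cell, and the cytoplasmic tail binds β-catenin and p120-catenin. Of these, β-catenin links the junction to actin through α-catenin. Cdh1 (E-cadherin), Cdh2 (N-cadherin) and Cdh4 (R-cadherin) are type I classical cadherins, and Cdh6, Cdh8, Cdh11 and Cdh12 are type II. Cdh13 (T-cadherin) has cadherin domains but is held in the membrane by a lipid anchor and lacks the catenin-binding tail, so it is not a classical cadherin in the strict sense. In the neural tube, neuroepithelial cells hold each other through N-cadherin at the apical junctions, and type II cadherins are known for labelling regional compartments and sets of neurons.

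The genes lie on 4 chromosomes of GRCm38, and 4 of them on chromosome 8. Cdh8 (chr8:99024471-99416471, minus strand), Cdh11 (chr8:102632095-102785642, minus strand), Cdh1 (chr8:106603351-106670246, plus strand) and Cdh13 (chr8:118283733-119324921, plus strand) follow each other there. Cdh6 (chr15:13028701-13173675, minus strand) and Cdh12 (chr15:20449265-21589533, plus strand) share chromosome 15, Cdh4 is on chromosome 2 (chr2:179442431-179899373, plus strand) and Cdh2 on the minus strand of chromosome 18. The genes differ far more in their genomic span than in their exons. The span ran from 66.9 kb for Cdh1 to 1140.3 kb for Cdh12, and the summed exonic length from 4.57 kb for Cdh1 to 11.2 kb for Cdh13.

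The septal library held 83103280 UMIs in 5827 barcodes, and 5372 cells with a median of 12859.5 UMIs were kept. The telencephalic library held 194821794 UMIs in 14283 barcodes, and 11707 cells with a median of 9032 UMIs were kept. The libraries shared 1 barcode. Clusters were named from marker lists, with cadherins, catenins and repressors of Cdh1 left out of the genes that formed the clusters. This gave 3463 APs, 315 BP-like cells, 1261 neurons and 70 non-neural cells in septal explants, and 6629 APs, 626 BP-like cells, 1720 neurons and 986 non-neural cells in the telencephalic vesicle. APs were deeper than neurons, with a median of 14109 against 11051 UMIs in septal explants and of 11121 against 6839 in the telencephalic vesicle. In the telencephalic vesicle 5 clusters with 1242 cells stayed unnamed, of which 3 clusters with 965 cells were shallow, and in septal explants 1 neuronal cluster of 371 cells stayed unnamed. Names do not cover the same cells in both libraries. The telencephalic pallial glutamatergic-like neurons were led by genes including Calb2, Nxph4 and Barhl2, genes that also led the unnamed septal neurons, and the septal pallial glutamatergic-like neurons by genes including Neurod6, Neurod2 and Bhlhe22.

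Levels are given as UMIs of a gene scaled to the same total of UMIs in every class (CPM, in a total of 1000000 UMIs) with an exact Poisson 95% interval, and ratios between classes with an exact conditional interval. Intervals cover counting error only. Cells are not replicates and several genes were concentrated in few cells, so the spread between embryos is not in any interval. A gene was called higher or lower at a ratio of 2-fold or more, among genes with at least 50 UMIs in both classes together. The septal and the telencephalic library differ in age, tissue, kit and Cell Ranger version, so their levels are shown side by side and are not compared. UMIs are not scaled by length either, and no level is ranked between genes.

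Members other than Cdh2, which had a UMI in 81.8% of septal cells, were sparse in septal explants. Over the kept septal cells there were 13088 UMIs of Cdh2, 1098 of Cdh4, 675 of Cdh11, 357 of Cdh13, 78 of Cdh8, 57 of Cdh6, 12 of Cdh12 and 8 of Cdh1. The telencephalic cells held 106111 UMIs of Cdh2, 33013 of Cdh4, 21092 of Cdh6, 16790 of Cdh11, 7482 of Cdh8, 4765 of Cdh13, 524 of Cdh12 and 72 of Cdh1. Septal Cdh1, Cdh6, Cdh8 and Cdh12 therefore had too few UMIs for most differences between classes to be seen, and the telencephalic library carries most of what follows.

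**Figure D1:**
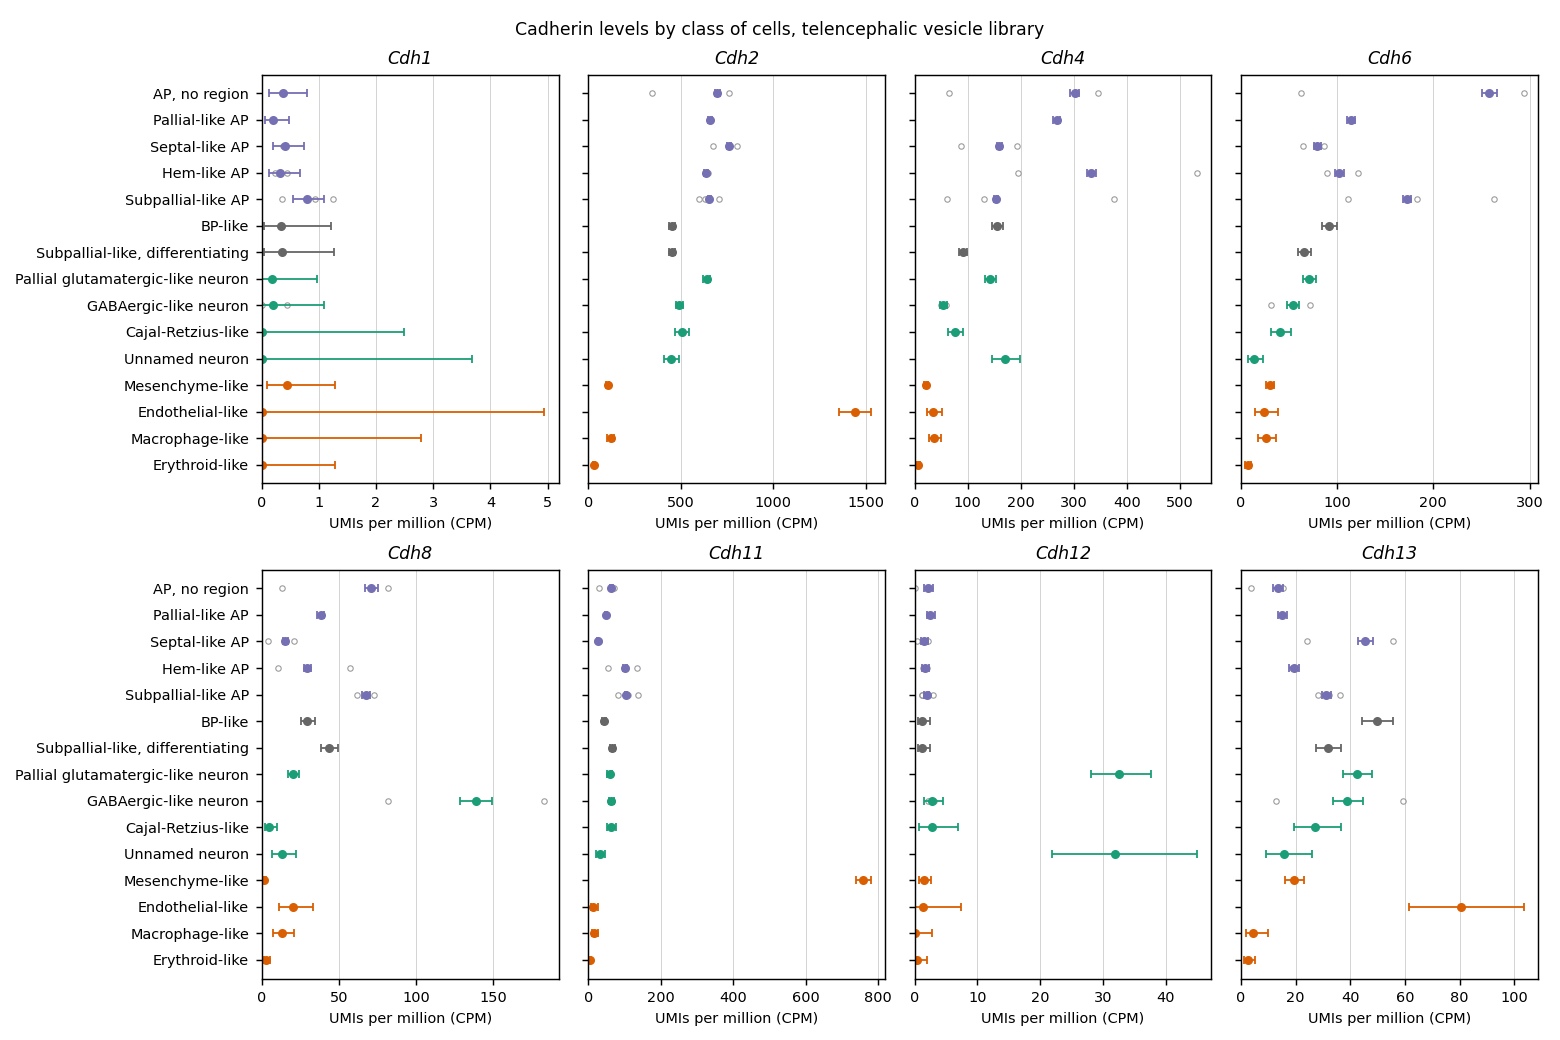
Level of each of the 8 genes in the telencephalic library, 1 panel per gene, in CPM on the x axis for every named class on the y axis. Filled points are classes with their 95% counting interval (purple APs, grey BP-like and differentiating cells, green neurons, orange non-neural cells) and open grey points are the clusters within a class. Cdh11 stood highest in mesenchyme-like cells at 759 CPM, Cdh8 in GABAergic-like neurons at 139 CPM and Cdh12 in pallial glutamatergic-like neurons at 32.6 CPM.

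Cdh2, the N-cadherin of the neuroepithelium, was present in all neural classes of both libraries. In the telencephalic vesicle it measured 761 CPM (95% interval 751-772) in septal-like APs, 698 in APs without a regional name, 657 in pallial-like, 654 in subpallial-like and 637 in hem-like APs. Neurons covered 639 CPM (619-660) in pallial glutamatergic-like cells, 504 (469-542) in Cajal-Retzius-like cells and 491 (472-510) in GABAergic-like cells. The lowest values of the named neural classes were those of cells between APs and neurons. These were 453 CPM in BP-like cells and 452 in the differentiating cells led by Gsx1 and Dlx1. The 115 unnamed neurons, with 450 UMIs of Cdh2, are not part of this order. Pallial-like and subpallial-like APs, pallial glutamatergic-like neurons and hem-like APs were next to each other in this order with overlapping intervals. In septal explants the range was 228 CPM (208-249) in hem-like APs to 103 (91.5-115) in the differentiating cells, with BP-like cells again low at 119 (109-130).

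Among non-neural classes Cdh2 split. The 22 endothelial-like cells held 1439 CPM (1354-1528), and all 22 had a UMI of it, with Cdh5 (VE-cadherin) among their leading genes. Macrophage-like cells at 121 CPM, mesenchyme-like cells at 104 and erythroid-like cells at 31.8 were below every named neural class of the telencephalic vesicle. Erythroid-like cells served as the cells that should lack Cdh2, but 7 of 400 held 60.9% of their 92 Cdh2 UMIs, so their level is not shown to be one of free RNA. After thinning each cell to 3500 UMIs, 5.04% of erythroid-like cells (18 of 357; 95% exact interval 3.02-7.85) held a Cdh2 UMI, against 83.4% of APs and 78.7% of neurons. Without thinning the shares were 8.50%, 96.7% and 91.0%, at median depths of 5428.5, 11121 and 6839 UMIs. In septal explants mesenchyme-like cells had 44.2 CPM, from 23 UMIs in 17 of 34 cells, and erythroid-like cells 42.5 CPM, from 31 UMIs of which 3 of 26 cells held 54.8%.

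Cdh4, the other type I cadherin of neural tissue, varied more than Cdh2 among APs. Telencephalic levels were 333 CPM (326-341) in hem-like APs, 302 (294-310) in APs without a regional name, 268 (261-274) in pallial-like APs, 160 in septal-like APs and 153 (149-157) in subpallial-like APs. BP-like cells had 156 CPM and pallial glutamatergic-like neurons 143, and the intervals of septal-like APs, BP-like cells and subpallial-like APs overlapped in turn. Cajal-Retzius-like cells had 76.3 CPM and GABAergic-like neurons 53.7 (47.5-60.4). Clusters within an AP class also differed. The hem-like cluster led by genes including Wnt7b and Sfrp2, a marker of the ventral pallium (VP), held 532 CPM (517-548). It counted 4 hem markers. The one led by Wnt3a counted 9 and held 195 CPM (188-203), below pallial-like APs. The first rank of hem-like APs thus rests on the Sfrp2-led cluster. The subpallial-like clusters ran from 60.6 CPM in that led by Shh and Nkx2-1 to 376 in that led by Fst and Igfbp5.

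In septal explants Cdh4 was highest in APs without a regional name at 22.9 CPM, followed by Cajal-Retzius-like cells at 22.2 and pallial glutamatergic-like neurons at 21.7, and all neighbours in the order overlapped. GABAergic-like neurons were lowest among neural classes there too, with 3.26 CPM (1.41-6.42; 8 UMIs). The septal AP cluster led by Col25a1 and Wnt7a had 45.0 CPM (38.7-52.0).

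Cdh1, the E-cadherin of epithelia, was close to absent. Septal explants had 8 UMIs in 8 cells. All telencephalic barcodes together held 125 UMIs, of which 72 were in kept cells. These 72 UMIs reached 0.57% of cells. Of them 35 fell in subpallial-like APs, at 0.788 CPM (0.549-1.10), and 5 in pallial-like APs, at 0.201 CPM (0.0654-0.470). Intervals overlapped between all neighbours in the order of classes, and no class reached 1 CPM.

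Cdh6 was higher in most APs than in neurons of the telencephalic vesicle. APs without a regional name held 258 CPM (250-266), subpallial-like APs 173 (169-176), pallial-like APs 114 (110-119), hem-like APs 102 (98.2-107), BP-like cells 91.9 and septal-like APs 79.5 (76.1-83.1). Neurons held 71.2 CPM (64.5-78.4) in pallial glutamatergic-like, whose interval overlaps that of septal-like APs, 53.7 in GABAergic-like and 40.5 in Cajal-Retzius-like cells. The highest class rests on 1 cluster, which was led by genes including Nrg1, a marker of the VP, and held 294 CPM (285-303) against 61.9 in the other cluster of that class. With cell cycle genes kept for clustering that class ranked 8 instead. In septal explants Cdh6 did not pass 1.41 CPM in any named class.

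In the telencephalic vesicle Cdh8 was highest in GABAergic-like neurons and, among APs with a regional name, in subpallial-like ones. GABAergic-like neurons held 139 CPM (129-149), APs without a regional name 71.0, subpallial-like APs 67.4 (65.1-69.9) and pallial-like APs 38.1 (35.7-40.6). Pallial glutamatergic-like neurons had 20.2 CPM (16.7-24.2), septal-like APs 15.4 and Cajal-Retzius-like cells 4.73. The GABAergic-like neurons were not uniform. The cluster led by genes including Isl1, a factor of striatal projection neurons, held 183 CPM (168-199), and that led by Lhx6 and Lhx8, factors of the medial ganglionic eminence, held 82.1 (70.7-94.8). In GABAergic-like neurons 154 of 710 cells held the 713 UMIs, on average 4.63 UMIs per positive cell, and 56 cells with 5 or more UMIs held 72.8% of them. In all APs a positive cell had 2.82 UMIs of Cdh8 on average. Septal explants had 0 UMIs of Cdh8 in GABAergic-like neurons and 5 in pallial glutamatergic-like neurons. Septal pallial-like APs had 1.63 CPM (0.982-2.55) and subpallial-like APs 1.11 (0.670-1.74), on 19 UMIs each.

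Cdh11, a cadherin of mesenchyme, stood far above all neural classes in mesenchyme-like cells. The 492 telencephalic cells held 759 CPM (739-780), and 84.3% of them held a UMI at 3500 UMIs per cell, against 18.4% of neural cells and 0.28% of erythroid-like cells. The 34 septal cells held 165 CPM from 86 UMIs. Both clusters were led by collagens and Lum. Within neural tissue Cdh11 was regional. Telencephalic subpallial-like APs held 105 CPM (102-108) and hem-like APs 102 (97.5-106), with overlapping intervals, and pallial-like APs held 48.6 (45.9-51.4) and septal-like APs 26.1 (24.1-28.1). In septal explants hem-like APs were highest among neural classes with 48.1 CPM (39.2-58.4), then pallial glutamatergic-like neurons with 24.6 (17-34.3), and the other named neural classes lay between 2.83 and 8.55 CPM. Within the telencephalic hem class the Wnt3a-led cluster had 135 CPM (128-141) and the Sfrp2-led cluster 53.9 (49.2-59.0), the reverse of their order for Cdh4.

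Cdh12 was highest in some of the neurons and was held by very few cells. In the telencephalic vesicle it measured 32.6 CPM (28.1-37.6) in pallial glutamatergic-like neurons and 31.9 (21.8-45.0) in the unnamed neurons led by genes including Otp and Sim1, and 1.17 to 2.72 CPM in every other named neural class. Of 707 pallial glutamatergic-like neurons 52 held a UMI, and 11 cells with 5 or more UMIs held 62.4% of the 189 UMIs, up to 23 in 1 cell. No AP held more than 4. The class level thus describes a small set of neurons, and its counting interval, which takes each UMI as independent, is too narrow for it. Thinned, 5.19% of these neurons and 0.445% of APs had a UMI, with 0 of 357 erythroid-like cells (upper limit of the share 0.840%, from 3 counts). Septal explants had 12 UMIs in all, 9 of them in neurons.

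Cdh13, the lipid-anchored member, did not follow the division between APs and neurons. Telencephalic levels were 49.7 CPM (44.2-55.7) in BP-like cells, 45.5 (42.9-48.3) in septal-like APs, 42.4 (37.3-48.1) in pallial glutamatergic-like neurons and 38.9 (33.7-44.7) in GABAergic-like neurons, and neighbours in this order overlapped. Pallial-like APs with 15.1 CPM (13.6-16.7) and APs without a regional name with 13.5 were lowest of the neural classes. The 22 endothelial-like cells, where T-cadherin is known from vessels, had 80.4 CPM (61.4-103). In GABAergic-like neurons the Isl1-led cluster held 59.4 CPM (50.9-69.0) and the Lhx6-led cluster 12.8 (8.57-18.4). In septal explants pallial glutamatergic-like neurons were highest at 28.9 CPM (20.6-39.3), then subpallial-like APs at 8.03 (6.74-9.49), and pallial-like APs had 1.55 (0.916-2.44).

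**Figure D2:**
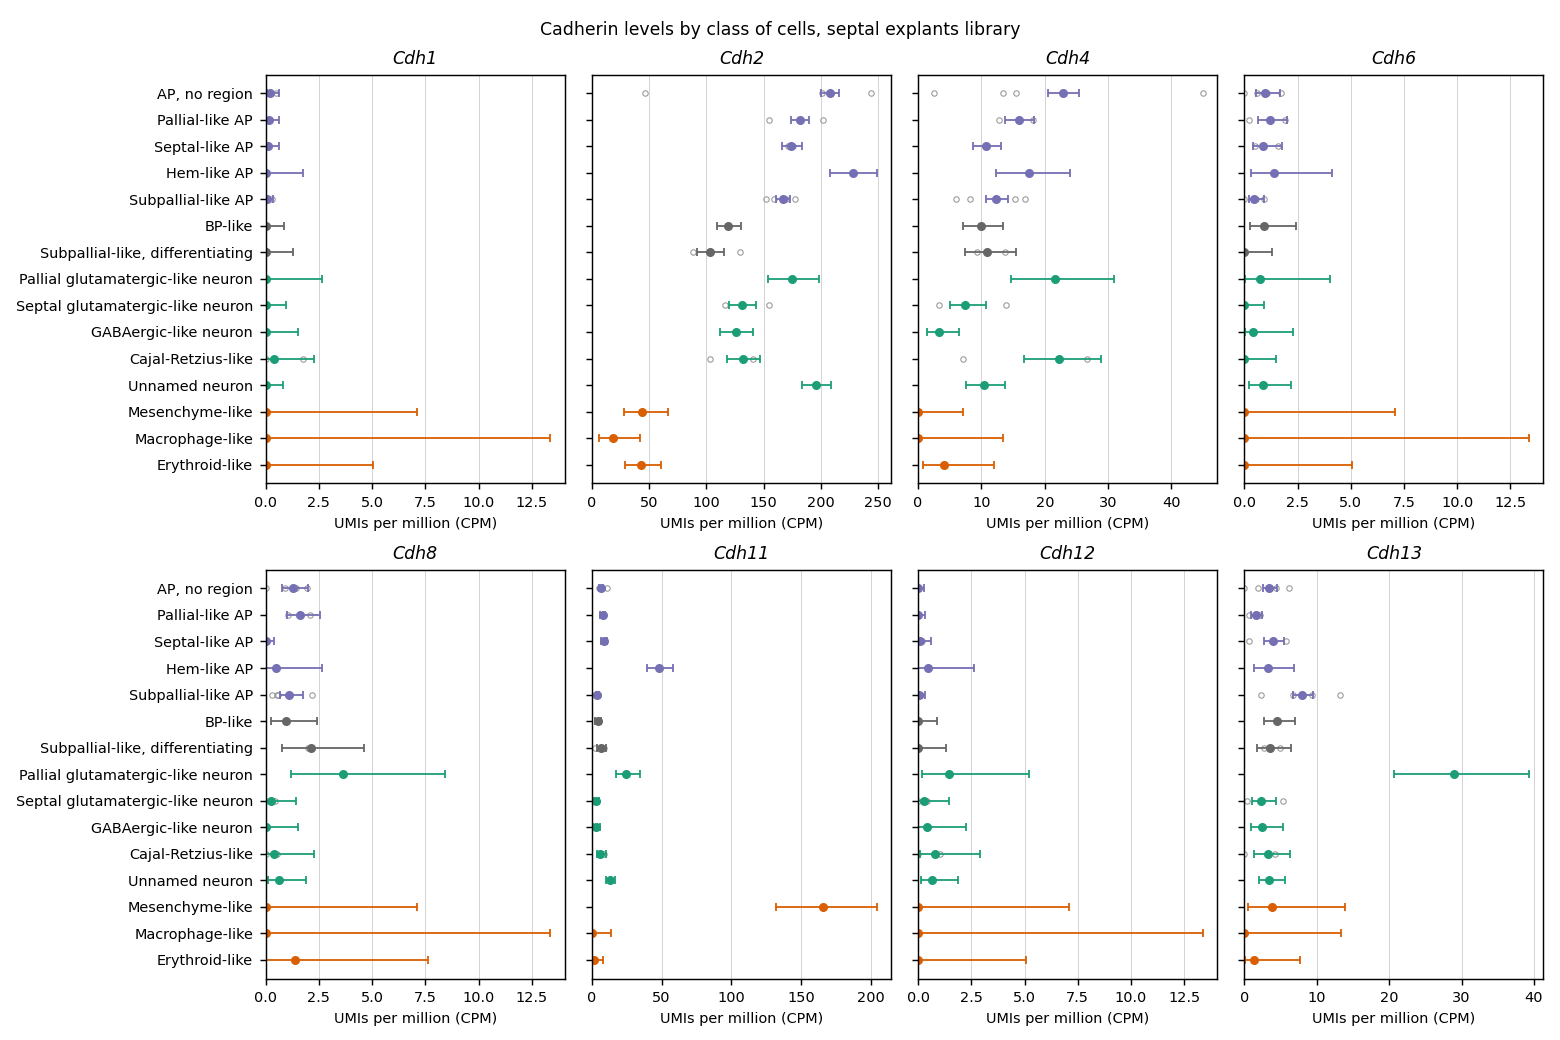
Level of each of the 8 genes in the septal library, drawn as for the telencephalic vesicle with CPM on the x axis and named classes on the y axis. Points are classes with 95% counting intervals and open grey points their clusters, and the wide intervals of Cdh1, Cdh6, Cdh8 and Cdh12, which have 78 UMIs or fewer, span most of their panels.

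Neurons were then compared with APs. In the telencephalic vesicle Cdh4 was lower in neurons, 103 against 224 CPM, which is 2.16-fold lower (95% interval 2.05-2.28). Cdh6 was lower too, 56.8 against 143 CPM, 2.52-fold (2.34-2.71). Cdh12 was 9.22-fold higher in neurons (7.70-11), 17.8 against 1.93 CPM. Cdh1, with 2 UMIs in neurons and 63 in APs, was past the 2-fold limit with an interval of the ratio that includes equality (0.314; 0.037-1.18). The other 4 genes differed by less than 2-fold. Cdh2 was 1.22-fold lower in neurons (1.20-1.25), Cdh11 had a ratio of 0.801 (0.744-0.861), Cdh8 of 1.37 (1.27-1.47) and Cdh13 of 1.40 (1.27-1.53). Thus 1 of 8 members was called higher and 3 lower, where 17.1% of all 15885 genes were called higher and 19.8% lower. Cdh4 fell short of 2-fold with doublets kept (log2 ratio -0.84), with all barcodes (-0.82), with the mean of single-cell CPM (-0.99) and after thinning (-0.95), and Cdh6 with doublets kept (-0.998) and all barcodes (-0.94).

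In septal explants only Cdh6 passed the limit, on 6 UMIs in neurons against 47 in APs, with a ratio of 0.463 and an interval that includes equality (0.162-1.09). Cdh2 measured 155 CPM in neurons and 184 in APs (ratio 0.839; 0.801-0.878), and Cdh4 11.4 and 15.8 (0.724; 0.610-0.854). Cdh11 (1.10; 0.892-1.34) and Cdh13 (1.17; 0.893-1.51) had intervals that include equality. Of 6 members tested 0 were called higher and 1 lower, where 17.7% of 12781 genes were higher and 16.4% lower.

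**Figure D3:**
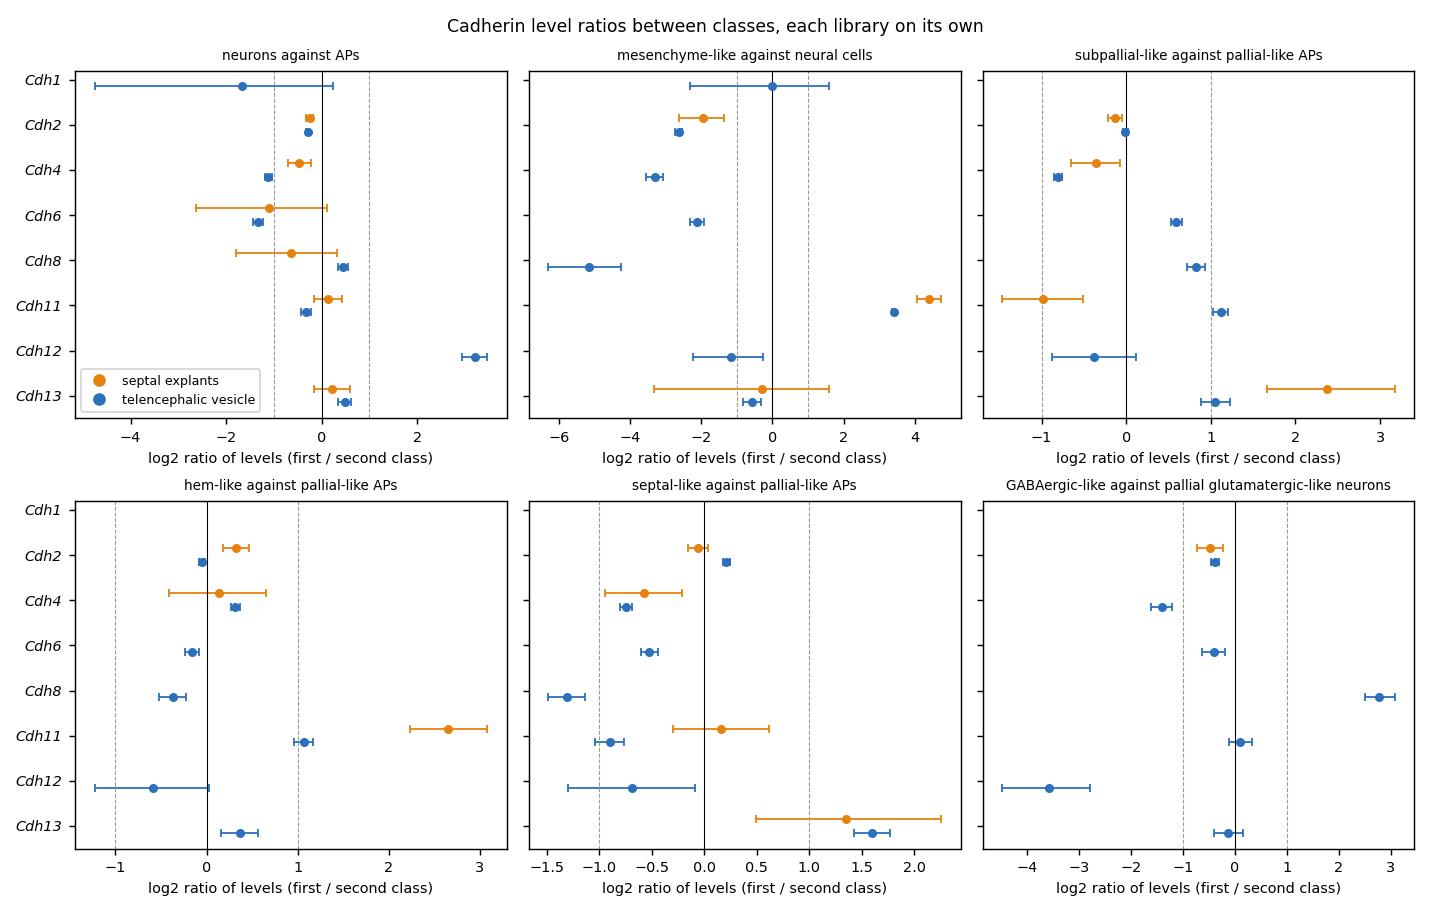
Log2 ratio of each gene (y axis) in 6 comparisons of classes, 1 panel each, with 95% counting intervals, in septal explants (orange) and the telencephalic vesicle (blue). Dashed lines mark 2-fold. Cdh12 lay at 3.20 for telencephalic neurons against APs and Cdh8 at 2.78 for GABAergic-like against pallial glutamatergic-like neurons, whereas Cdh11 lay on opposite sides of 0 in the libraries for subpallial-like against pallial-like APs.

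Non-neural cells differed from neural cells in most members. Telencephalic Cdh11 measured 446 CPM in non-neural and 71.3 in neural cells, a ratio of 6.25 (6.04-6.45). Lower in non-neural cells were Cdh2 (173 against 650 CPM), Cdh4 (20.1 against 206), Cdh6 (23.7 against 131), Cdh8 (4.14 against 47.0) and Cdh12 (1.01 against 3.23), and Cdh13 was 1.64-fold lower (1.43-1.90). Hence 1 of 8 was higher and 5 lower, where 12.1% of 16558 genes were higher and 18.6% lower, and without the erythroid-like cells the same genes were called, with 13.8% of all genes higher and 14.4% lower. In mesenchyme-like cells alone the ratio of Cdh11 was 10.6 (10.3-11), and Cdh8 was 36.0-fold lower (18.9-78.7) on 9 UMIs.

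The 70 septal non-neural cells had 57.0 CPM of Cdh11 against 7.75 in neural cells, a ratio of 7.36 (5.81-9.23), and 86 of their 87 UMIs came from the 34 mesenchyme-like cells, whose ratio was 21.3 (16.8-26.8). Cdh2 was 4.44-fold lower (3.44-5.84), and Cdh4 (3 UMIs) and Cdh13 (3 UMIs) also passed the limit, the latter with an interval that includes equality (0.421; 0.086-1.24). This is 1 of 6 higher and 3 lower, where 7.99% of 13030 genes were higher and 25.7% lower, and without erythroid-like cells 1 higher and 2 lower, where 13.1% were higher and 13.4% lower. The septal call of Cdh11 depends on the mesenchyme-like cells being named. In 4 alternative clusterings they were not, only erythroid-like cells were left as non-neural, and the log2 ratio was between -4.21 and -2.50 in place of 2.88.

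Among APs, Cdh13 was higher in subpallial-like than in pallial-like cells of both libraries. The septal values were 8.03 and 1.55 CPM, a ratio of 5.19 (3.17-9.02) on 137 and 18 UMIs. The telencephalic values were 31.3 and 15.1 CPM, a ratio of 2.08 (1.85-2.33) that fell under 2-fold in 5 of the alternatives, down to a log2 ratio of 0.67 after thinning. Cdh11 was 2.17-fold higher in telencephalic subpallial-like APs (2.04-2.31), and in septal explants it was lower there, 3.87 against 7.64 CPM (0.506; 0.362-0.704). Telencephalic Cdh8 (1.77; 1.65-1.91) and Cdh6 (1.51; 1.45-1.58) were higher in subpallial-like APs and Cdh4 was 1.75-fold lower (1.69-1.81), all under 2-fold, and for Cdh2 the ratio was 0.994 (0.976-1.01). The ratio of Cdh4 does not hold for every cluster, as the subpallial-like cluster led by Fst and Igfbp5 was above pallial-like APs. In the telencephalic vesicle 2 of 7 members were called higher and 0 lower, where 6.74% of 14078 genes were higher and 3.13% lower. In septal explants 1 of 4 was called higher and 0 lower, where 4.42% of 11149 genes were higher and 2.7% lower.

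Hem-like and septal-like APs were compared with the same reference. Relative to pallial-like APs, Cdh11 was 6.29-fold higher in septal hem-like APs (4.69-8.46) and 2.09-fold higher in telencephalic ones (1.95-2.25). The telencephalic ratio rests on the Wnt3a-led cluster, since the interval of the Sfrp2-led cluster overlapped that of pallial-like APs. Cdh13 was higher in septal-like APs in both libraries, 2.55-fold in septal explants (1.41-4.78) and 3.02-fold in the telencephalic vesicle (2.69-3.41). Without thinning, 67 of 1014 telencephalic septal-like APs had 5 or more UMIs of Cdh13. They held 58.8% of its 1144 UMIs there, with up to 33 in 1 cell. In pallial-like APs 10 of 791 cells held 16.8% of 374 UMIs. The counting interval of the telencephalic ratio, which takes each UMI as independent, is thus too narrow. Telencephalic septal-like APs were at the same time 2.48-fold lower in Cdh8 (2.20-2.80) and 1.86-fold lower in Cdh11 (1.69-2.05). These ratios were computed after the class levels had been seen.

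GABAergic-like and pallial glutamatergic-like neurons of the telencephalic vesicle differed in 3 of the 7 members tested. Cdh8 was 6.87-fold higher in GABAergic-like neurons (5.65-8.43). Cdh12 was 11.97-fold lower (6.96-22.3), on 14 against 189 UMIs, and Cdh4 2.66-fold lower (2.32-3.06), 53.7 against 143 CPM. Cdh11 (1.08; 0.921-1.26) and Cdh13 (0.917; 0.757-1.11) had intervals that include equality, and Cdh2 a ratio of 0.768 (0.730-0.808). Here 1 of 7 was higher and 2 lower, where 4.38% of 10795 genes were higher and 4.83% lower. The call of Cdh4 was lost at a finer clustering, where its log2 ratio was -0.88.

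In septal explants only Cdh2 had enough UMIs for the same comparison. It measured 126 CPM in GABAergic-like and 175 in pallial glutamatergic-like neurons (0.720; 0.607-0.855), so 0 of 1 members were called in either direction, where 5.82% of 7046 genes were higher and 5.79% lower. Under the limit of 50 UMIs, Cdh13 had 6 UMIs in 228 GABAergic-like and 40 in 101 pallial glutamatergic-like neurons, 11.8-fold lower (4.98-34.1), Cdh11 had 7 and 34, and Cdh4 had 8 and 30.

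Along an axis of differentiation, the log2 ratio of summed UMIs of neuronal genes to those of AP genes in each cell, some members passed through a minimum. Telencephalic pallial-like APs, BP-like cells and pallial glutamatergic-like neurons were ordered together in 10 bins of 212 or 213 cells. Cdh4 measured 271 CPM in bin 1 and 300 in bin 2, 55.3 (44.8-67.4) in bin 6 and 47.7 (37.6-59.8) in bin 7, and then 114, 145 and 160 (142-180) in bins 8 to 10. Its level was thus low in bins 6 and 7 of this order and intermediate in the most differentiated neurons. The order places cells of 1 library side by side and follows no cell over time. The class levels, 268 CPM in pallial-like APs, 156 in BP-like cells and 143 in pallial glutamatergic-like neurons, had no such minimum. Cdh2 took the same course with less depth, from 694 CPM in bin 2 to 439 (409-471) in bin 6 and 721 (682-762.3) in bin 10. Cdh13 took the opposite one, from 12.9 CPM in bin 1 to 64.7 (52.8-78.5) in bin 7 and 38.3 in bin 10. Cdh12 stayed between 1.14 and 3.34 CPM up to bin 7 and then measured 11.6, 44.5 and 50.8 (40.8-62.6).

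Subpallial-like APs, differentiating cells and GABAergic-like neurons were ordered in the same way. Cdh8 lay between 53.4 and 80.7 CPM in bins 1 to 7, at 41.1 and 38.4 (31.5-46.3) in bins 8 and 9, and at 210 (194-227) in bin 10. Cdh11 had its lowest value, 40.2 CPM, in bin 9 and 78.8 in bin 10, and Cdh6 had 205 in bin 4, 41.6 in bin 9 and 58.8 in bin 10. Cdh12 did not pass 3.99 CPM anywhere in this order. The rise of Cdh12 was thus seen in the pallial order and the late rise of Cdh8 in the subpallial one. Over all septal neural cells Cdh2 went from 202 CPM in bin 2 to 114 (105-122) in bin 8 and 176 (166-187) in bin 10, and Cdh4 from 20.3 to 6.13 (4.29-8.48) and 14.8. Median depth also changed along the axis, from 16614 UMIs in bin 2 to 6508.5 in bin 7 of the pallial order, and its part in these levels was not tested.

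**Figure D4:**
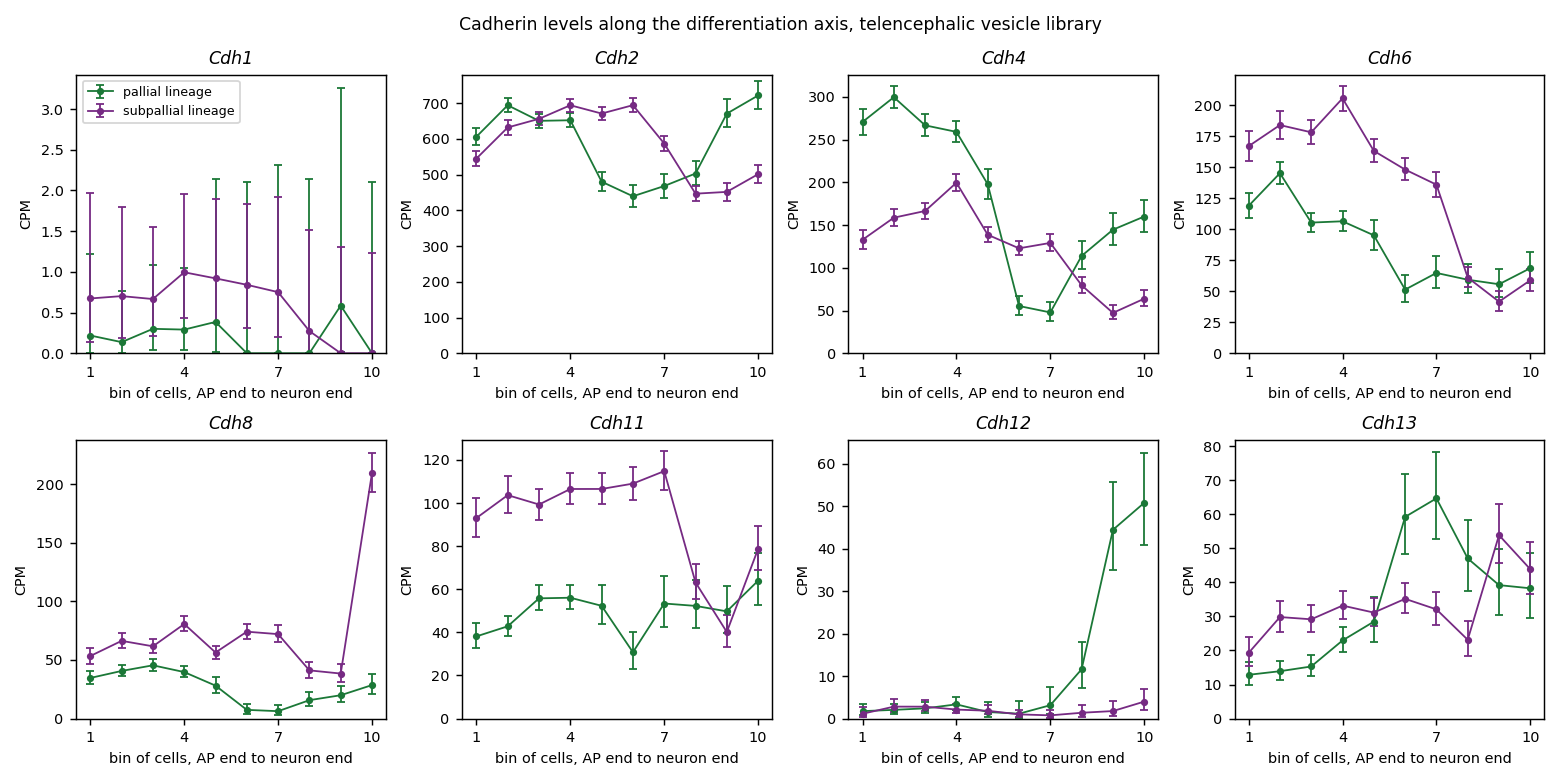
Telencephalic level of each gene in CPM (y axis) with 95% counting intervals over 10 bins from least to most differentiated cells (x axis), for the pallial order (APs, BP-like cells and glutamatergic-like neurons) and the subpallial order. Cdh4 dips to 47.7 CPM in bin 7 of the pallial order and returns to 160 in bin 10, Cdh12 reaches 50.8 in the last pallial bin and Cdh8 210 in the last subpallial bin.

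The genes were also counted per cell. With each telencephalic cell thinned to 3500 UMIs, an AP had UMIs of 1.91 of the 8 genes on average and 27.0% of APs had 3 or more, a neuron 1.496 and 13.5%, a mesenchyme-like cell 1.27 and 4.74%, and an erythroid-like cell 0.0812 and 0.280%. APs as a whole thus held more of these genes per cell than neurons at equal depth, although septal-like APs with 1.55 were below pallial glutamatergic-like neurons with 1.67. In septal explants, thinned to 8000 UMIs, the averages were 0.946 in APs and 0.869 in neurons, and 1.01% and 1.06% held 3 or more. Without thinning, 320 of 791 pallial-like APs held 5 or more UMIs of Cdh4. These held 89.1% of its UMIs, with up to 119 in 1 cell. For Cdh2 the same counts were 598 of 791 cells and 97.1% of UMIs, so such a share is not particular to Cdh4. Pallial-like APs had a median of 14822 UMIs, and the part of depth in these shares was not tested. The highest Cdh4 count of any cell was 227, in a hem-like AP.

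Likeness across clusters of at least 50 cells was measured as Pearson r of log2(CPM + 1), averaged over 23 septal and 24 telencephalic clusters, among 11830 genes with at least 100 UMIs in each library. Only Cdh2, Cdh4, Cdh11 and Cdh13 had that many. Among the most alike genes were Stox2 (mean r 0.89), Jarid2 (0.87) and Phf6 (0.86) for Cdh2, Phlpp1 (0.83), Fat3 (0.82) and 4930452B06Rik (0.80) for Cdh4, Flrt2 (0.70), Limch1 (0.68) and Nynrin (0.68) for Cdh11, and Klf13 (0.77) and Ptk2 (0.75) for Cdh13. Clusters of a library share its depth and free RNA. All 23 septal clusters were neural, and 17 of the telencephalic ones. Within the 17 telencephalic neural clusters Cdh2 had r 0.79 with Stox2, 0.74 with Jarid2 and 0.46 with Phf6. Cdh4 had r 0.66 with Phlpp1, 0.62 with Fat3 and 0.53 with 4930452B06Rik. For Cdh11 the values were 0.40 with Flrt2, 0.45 with Limch1 and 0.26 with Nynrin, and for Cdh13 0.79 with Klf13 and 0.60 with Ptk2. Among the members, Cdh2 and Cdh4 had r 0.71 over septal and 0.87 over telencephalic clusters, and 0.54 over the 17 neural ones.

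The rest of the adhesion system was read from lists of 11 other type I and II cadherins, 10 catenins and junction partners, and 5 repressors of Cdh1. In telencephalic neurons against APs, 9 other cadherins could be tested, of which Cdh7, Cdh9 and Cdh18 were higher and Cdh3, Cdh19 and Cdh20 lower (17.1% of all genes were higher and 19.8% lower), with a median log2 ratio of 0.26 against -0.08 over all genes and -0.31 over the 8 members. Cdh18, a type II cadherin, was 13.2-fold higher (10.7-16.2), 16.7 against 1.27 CPM. In septal explants 6 could be tested, with Cdh7, Cdh10 and Cdh15 higher and Cdh20 lower (17.7% of all genes were higher and 16.4% lower), a median of 0.67 against 0.05 over all genes.

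Among the catenins the α-catenins changed over. Ctnna2, the αN-catenin of neurons, was 5.39-fold higher in septal neurons than APs (4.84-6.02) and 4.98-fold higher in telencephalic ones (4.91-5.05). Ctnna1, the αE-catenin, had 34.1 CPM in septal neurons and 88.5 in APs, and 49.8 and 137 CPM in telencephalic ones, 2.59-fold (2.37-2.85) and 2.76-fold (2.56-2.99) lower. In both libraries 10 of 10 were tested, with Ctnna2 and Jup (γ-catenin) higher and Ctnna1 and Pkp4 lower, and a median log2 ratio of -0.06 in septal explants and 0.27 in the telencephalic vesicle. Ctnnb1 (β-catenin), the common partner of the classical members, had a ratio of 0.970 (0.936-1.01) and 0.750 (0.724-0.776). Among the repressors, 4 of 5 were tested in septal explants and 5 of 5 in the telencephalic vesicle, with Snai1 higher and Snai2 lower in neurons in both. The shares of all genes called are those given for the other cadherins. Their median log2 ratios were 0.48 and -0.47.

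In telencephalic non-neural cells 11 of 11 other cadherins were tested, 3 higher (Cdh3, Cdh5 and Cdh15) and 5 lower, 10 catenins with Jup higher and 3 lower, and 5 repressors with Snai1, Snai2 and Twist1 higher and 0 lower, where 12.1% of all genes were higher and 18.6% lower. In subpallial-like against pallial-like APs, Cdh7, Cdh20 and Cdh22 were higher in both libraries, 4.61-fold, 2.62-fold and 8.13-fold in septal explants and 2.17-fold, 12.4-fold and 3.36-fold in the telencephalic vesicle, where Cdh18 and Cdh19 were higher too and 0 of 7 were lower. Of all genes 4.42% were higher and 2.7% lower in septal explants, and 6.74% and 3.13% in the telencephalic vesicle. In septal explants 0 of 9 catenins were called, and in the telencephalic vesicle Ctnna2 (2.103-fold; 2.05-2.16) and the actin linker Vcl (3.49-fold; 3.25-3.76) were higher among 9.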

How the data were processed

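Both deposited matrices hold raw UMI counts per gene and barcode, made by the authors with Cell Ranger (version 2.1.1 for septal explants and 7.1.0 for the telencephalic vesicle, per the labels) on mm10 from about 10000 and 20000 input cells. The septal reads were processed with default parameters, which in that version count exonic reads, whereas the defaults of the other version include introns. Whether the telencephalic reads were processed with defaults is not given in the sources used here. Intron counting would change the levels of genes with long introns, so levels were not compared between libraries. Barcodes within 3 median absolute deviations of the median mitochondrial share were kept (5444 of 5827 and 12471 of 14283), and Scrublet in scanpy 1.11.5 removed 72 (1.32%) and 764 (6.13%) as doublets. Each library was clustered on its own (2000 variable genes, 30 components, 15 neighbours, Leiden resolution 1.5). Clusters were named from marker lists with at least 3 markers counted. The general AP name asked for fewer, as its markers are shared by all AP clusters, and 1 septal AP cluster counted 2. Clusters with at least 2 leading genes from short lists for choroid plexus or hypothalamus were left unnamed, and these lists were written after clusters had been seen. The thresholds of naming were set after clusters had been seen. UMIs were summed per class and divided by all UMIs of the class. Intervals are exact at 95% (scipy 1.17.1). Shares were thinned to 8000 UMIs per septal cell (510 cells left out) and 3500 per telencephalic cell (1144 left out). A share of 0 allows up to 3 counts. Every member was named in each class; genes alike were the 3 with the highest mean r, of which 1 for Cdh13 is not reported here. Gene positions come from GENCODE M21 on GRCm38. The members and lists were chosen with earlier results of these data known. Alternatives were other clusterings, cell filters, weights, depths and folds. With 1 sample per condition there was no test between groups. Scripts were tested on simulated counts.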

Additional observations from a re-analysis of the deposited data

Results flagged for a closer look

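Among members with at least 50 UMIs in both libraries, 2 ratios had counting intervals that lay on opposite sides of equality in the libraries. The difference between libraries was not tested, since each is 1 sample. Other ratios differed in sign with an interval that includes equality in at least 1 library. For subpallial-like against pallial-like APs, the log2 ratio of Cdh11 was -0.98 in septal explants (66 and 89 UMIs) and 1.12 in the telencephalic vesicle (4684 and 1207 UMIs). The sign was the same within each library under every alternative run, from -1.36 to -0.72 and from 1.06 to 1.30. For hem-like against pallial-like APs, the log2 ratio of Cdh2 was 0.32 in septal explants and -0.046 in the telencephalic vesicle, the latter a difference of 1.03-fold. Age, tissue, kit and the cells behind each class name differ between the libraries and cannot be told apart here.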

How the results depend on the processing

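No paired analysis was possible because each condition is 1 sample, and for the same reason no replicate could be left out. Over all alternatives 394 log2 ratios of 47 results were recomputed. Of these, 289 stayed within the counting interval, 101 moved out of it and 4 reversed. The 4 are Cdh11 in septal non-neural against neural cells, with -2.50 at resolution 0.8, -2.52 with doublets kept, -4.21 with all barcodes and -2.50 with cell cycle genes kept, in place of 2.88, where 0 cells were named mesenchyme-like. In these settings 0 members were higher in place of 1, and with all barcodes 5 were lower in place of 3. Of septal neurons, 0 members were lower in place of 1 at resolution 2.5, with the mean of single-cell CPM, after thinning and without unnamed neurons, and 2 at 1.5-fold. Of septal subpallial-like APs, 1 was lower in place of 0 with doublets kept, all barcodes, thinning and at 1.5-fold. Of septal GABAergic-like neurons, 3 were lower at resolution 2.5 and 2 with doublets kept or all barcodes, in place of 0. Of telencephalic neurons, 1 was lower in place of 3 with doublets kept, all barcodes and thinning. Of telencephalic non-neural cells, 2 were higher in place of 1 with doublets kept and all barcodes. Of telencephalic subpallial-like APs, 1 was higher in place of 2 at resolution 2.5, with all barcodes, another random seed, the mean of single-cell CPM and thinning, and 4 at 1.5-fold, whereas 1 was lower in place of 0 at resolution 0.8, with all barcodes and at 1.5-fold. Of telencephalic GABAergic-like neurons, 1 was lower in place of 2 at resolution 2.5, and resolution 0.8 gave no value, since 0 cells were named pallial glutamatergic-like. The shares of all genes called are given here for the main settings only, so these counts of members cannot be set against all genes. Other than the septal non-neural cells, the cause was not tested. Of 85 ranks of the class highest in a member 67 stayed, and 4 of 33 positions of the highest bin moved. All 44 shares of positive cells moved when 2 UMIs were asked for or cells were thinned. Of the log2 ratios, 19 of 40 moved after thinning and 15 of 46 with the mean of single-cell CPM. Other clusterings moved 10 of 47 at resolution 2.5, 8 of 40 at resolution 0.8 and 2 of 47 with another random seed. With all barcodes 19 of 47 moved, and with doublets kept 16 of 47. Depth, the weight of single cells, cell filters and class names thus all limit these results, together with the low septal counts of Cdh1, Cdh6, Cdh8 and Cdh12.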

Other observations

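The septal library holds UMIs of tdTomato, the reporter of the Dbx1 lineage, which only the E12.5 embryos carry. A UMI was found in 6.30% of APs (218 of 3463) and 9.60% of neurons (121 of 1261), and in 2 of 26 erythroid-like cells (7.69%; exact 95% interval 0.946-25.1), at median depths of 14109, 11051 and 29045.5 UMIs. Of the cells with a UMI, 61 of 218 APs, 58 of 121 neurons and 1 of 2 erythroid-like cells held 2 or more. The shares of APs and of neurons both lay within the interval of erythroid-like cells. That interval comes from 26 deeper cells and is too wide to decide whether the shares exceed free RNA. A single UMI is therefore not read as lineage in either. APs with one are not compared. Neurons with one are described below without reading the UMI as lineage. Among neurons the share was 22.8% (15-32.2) in pallial glutamatergic-like and 15.1% (11.52-19.3) in septal glutamatergic-like cells, and 3.51% (1.53-6.80) in GABAergic-like cells. The 121 neurons with a UMI held 19.9 CPM of Cdh4 (13.6-28.1) against 10.4 (8.75-12.3) in the other 1140, 14.3 CPM of Cdh11 (9.08-21.5) against 7.93 (6.48-9.60), and 11.2 CPM of Cdh13 (6.64-17.7) against 4.60 (3.52-5.91), while Cdh2 measured 136 CPM (118-155) and 157 (150-164). The class mix differed. Pallial glutamatergic-like cells were 19.0% of the neurons with a UMI and 6.84% of the others, and septal glutamatergic-like cells 43.8% and 26.1%. Cajal-Retzius-like cells were 19.8% and 16.3%, GABAergic-like cells 6.61% and 19.3%, and unnamed neurons 10.7% and 31.4%. Pallial glutamatergic-like cells were the highest named septal neurons in Cdh11 (24.6 CPM) and Cdh13 (28.9). Free RNA, age and lineage cannot be told apart in these cells, and the part of the class mix was not tested.

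Unnamed clusters of the telencephalic vesicle entered no comparison, except the unnamed neurons, which were counted among the neurons. The clusters left out include a shallow one of 65 cells, with a median of 1127 UMIs, led by genes including Stmn2, Tubb3 and Gap43. The 162 cells led by Ttr, a gene of choroid plexus, held 95.4 CPM of Cdh11 (83.3-109), and the 115 neurons led by genes including Otp and Sim1 held 170 CPM of Cdh4 and 31.9 CPM of Cdh12. In septal explants the low-depth AP cluster of 131 cells, with a median of 5160 UMIs, had 46.3 CPM of Cdh2 (32.8-63.6).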
